A study of Mus musculus with 16 samples.

Results

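The cytosolic ribosomal protein genes were examined in cultured mouse hepatocytes given SQ1 or pravastatin. They were taken by symbol, as every named gene whose symbol is Rpl or Rps followed by a number, with the closing letter a or, for Rps, x allowed, together with the stalk genes Rplp0, Rplp1 and Rplp2 and the small subunit gene Rpsa. This rule found 76 genes among the 20659 named genes on the array, 46 of the large and 30 of the small ribosomal subunit. All 76 passed the filter on dim probes and were among the 15091 genes tested, so no member was lost to low signal.

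A cytosolic ribosome is built from ribosomal RNA and a nearly fixed set of proteins, most of them present in a single copy, and the cell makes these proteins in matched amounts. Their mRNAs are among the most abundant in any cell, and in the liver they serve the synthesis of plasma proteins. Most of these mRNAs begin with a cytosine followed by a run of pyrimidines, the 5′ terminal oligopyrimidine or TOP motif, through which mTOR signalling and the protein LARP1 control their translation and stability.

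The cells were primary hepatocytes of male C57Bl/J mice, kept in Williams Medium E and treated from 48 h after plating for 48 h. SQ1 (squalestatin 1, an inhibitor of squalene synthase, which commits the isoprenoid pathway to sterols) was given at 100 µM and pravastatin (an inhibitor of HMG-CoA reductase, the rate-limiting enzyme of the same pathway, upstream of squalene synthase) at 30 µM. The doses and their units are those of the labels and were not checked against another source. Each of the 8 SQ1 samples and each of the 8 pravastatin samples was hybridised on one 2-colour array against RNA of untreated hepatocytes, with the treated RNA in the red dye in replicates 1 to 4 and in the green dye in replicates 5 to 8. The labels do not say whether the replicates came from separate animals or cultures, so the p-values measure the spread between these arrays.

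Unless another normalization is named, every value below is a log2 ratio of treated over untreated signal after intensity-dependent centring (loess), with the dye effect removed. A value of 0 thus means the centre of spots of like intensity on the array, not equal amounts of RNA. A call is an adjusted p under 0.05 in a two-sided limma test across all 15091 genes. Values and calls of a gene's dimmer probes come from a separate limma fit of 25870 probes tested singly, with an adjustment of its own. Between 23259 and 27469 probes per array were well above background in the treated channel. The members' probes were bright, with a median log2 intensity of 16.98 against 10.58 over all genes tested. Array intensity does not compare abundance between genes, and ribosomal protein probes may also bind transcripts of the many processed pseudogenes and of near-identical paralogues, which makes each single member's value uncertain to that extent. In cultures of this kind, fewer cells of a type and less RNA per cell cannot be told apart.

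The RefSeq promoter table (GRCm38.p6) held 56 of the 76 members. Windows of 70 bases, from 40 before the annotated start to 30 after it, are printed for 8 genes that the results turn on. Capitals mark the longest unbroken run of C and T of at least 8 bases that overlaps the 20 bases on either side of the start. Such a run need not begin at the first base of the mRNA, as a TOP motif does, so the capitals do not identify TOP motifs. The first 5 are members that were higher under pravastatin.
Rpl15, chr14:18270957-18271026, minus strand: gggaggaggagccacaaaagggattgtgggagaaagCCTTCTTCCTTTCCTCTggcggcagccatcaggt
Rplp2, chr7:141447611-141447680, plus strand: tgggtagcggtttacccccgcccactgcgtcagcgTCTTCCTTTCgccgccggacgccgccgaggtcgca
Rpl12, chr2:32961672-32961741, plus strand: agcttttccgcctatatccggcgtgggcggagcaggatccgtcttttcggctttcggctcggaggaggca
Rps18, chr17:33955636-33955705, minus strand: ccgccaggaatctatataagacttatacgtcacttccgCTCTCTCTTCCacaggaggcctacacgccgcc
Rps27, chr3:90213619-90213688, minus strand: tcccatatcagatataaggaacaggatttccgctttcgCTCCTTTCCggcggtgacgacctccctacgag
The next 3 are members whose brightest probe was not higher under pravastatin. On that probe Rps6 and Rpl26 did not pass the test and Rpl10 was lower, while other probes of Rps6 and Rpl26 were higher, as given below.
Rps6, chr4:86857338-86857407, minus strand: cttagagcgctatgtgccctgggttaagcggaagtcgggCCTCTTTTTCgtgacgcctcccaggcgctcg
Rpl26, chr11:68901526-68901595, plus strand: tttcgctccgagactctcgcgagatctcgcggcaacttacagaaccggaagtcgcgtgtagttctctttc
Rpl10, chrX:74270776-74270845, plus strand: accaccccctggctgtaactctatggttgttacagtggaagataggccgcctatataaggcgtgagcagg
The run was present in higher members such as Rpl15, where it was 17 bases long, and in Rps6, whose brightest probe did not pass, where it was 10 bases long. No such run overlapped the 20 bases on either side of the start in Rpl12, which was higher, or in Rpl10 and Rpl26. In Rpl26, however, a run of C and T begins just past that limit, at the end of the printed window.

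After pravastatin, transcripts of most ribosomal proteins rose by a small amount. By their brightest probes, 41 of 46 large subunit genes were higher, 1 was lower and 4 did not pass. Of the small subunit genes 26 of 30 were higher, none was lower and 4 did not pass. Over all genes tested, 66.6% were called under pravastatin, 30.8% higher and 35.8% lower. The median log2 ratio was 0.20 for the large subunit and 0.19 for the small subunit, against -0.01 over all genes tested. With arrays centred on their median and no loess these medians were 0.42 and 0.41. The medians of the 46 large subunit genes on the 8 arrays ran between 0.13 and 0.24 (SD 0.040), and those of the 30 small subunit genes between 0.15 and 0.24 (SD 0.035), so that both stood above 0 on 8 of 8 arrays. A ratio above 0 on every array was seen for 54 of the 76 members, 34 of the large and 20 of the small subunit, against 21.8% of all genes tested, and none was below 0 on every array, against 26.3%. More than 1.2-fold higher were 6 large and 6 small subunit genes, 12 of the 76, a share near the 13.0% of all genes tested.

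**Figure D1:**
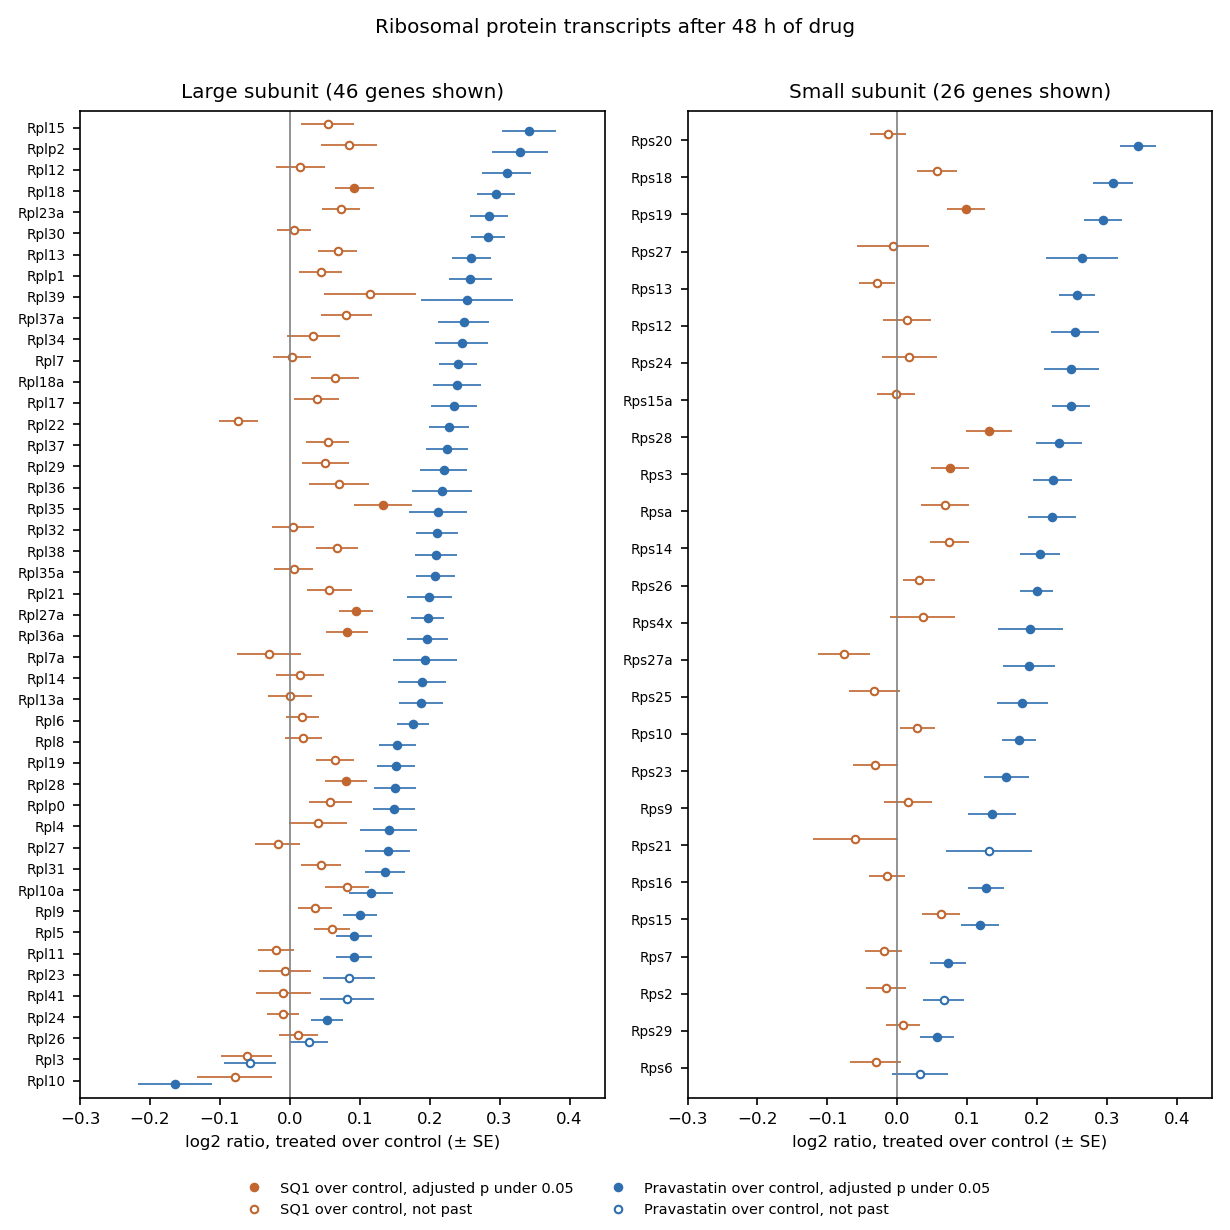
Each row is 1 of 72 ribosomal protein genes (46 of the large and 26 of the small subunit), with the log2 ratio of SQ1 over control (orange) and of pravastatin over control (blue) and its standard error on the horizontal axis, and filled points are past an adjusted p of 0.05. Pravastatin values lie right of 0 for all genes shown except Rpl3 and Rpl10 and reach 0.34 at Rpl15 and Rps20, while SQ1 values lie between -0.08 and 0.13.

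Among the large subunit genes, the highest under pravastatin by its brightest probe was Rpl15, a core structural protein of the subunit. Its log2 ratio had a lowest value of 0.20, a median of 0.34 and a highest of 0.52 over the 8 pravastatin arrays, and the fitted value was 0.34 ± 0.04 (SE), which is 1.27-fold (limma, adjusted p = 6.5e-07). All 8 arrays stood clear of 0 on this probe, but the other Rpl15 probe, a dimmer one, was lower at -0.41 (adjusted p = 1.0e-09), and the mean over both was -0.04. Rplp2, one of the acidic proteins of the stalk that recruits elongation factors, ranged from 0.11 to 0.53 with a median of 0.34, and its fitted value was 0.33 ± 0.04 (adjusted p = 1.6e-06). Rpl12, at the base of that stalk, ranged from 0.19 to 0.43 with a median of 0.32 and was fitted at 0.31 ± 0.04 (adjusted p = 7.5e-07). Both stalk-region genes were above 0 on every array, but Rplp2 spread more widely between arrays. Rpl18 lay between 0.17 and 0.36 with a median of 0.32 and a fitted value of 0.29 ± 0.03 (adjusted p = 8.3e-08). Rpl23a, which lines the exit of the nascent-chain tunnel and docks the signal recognition particle, lay between 0.22 and 0.36 with a median of 0.28 and a fitted value of 0.29 ± 0.03 (adjusted p = 1.0e-07). Rpl30 varied little, with 8 arrays between 0.25 and 0.36 and a fitted value of 0.28 ± 0.02 (adjusted p = 3.5e-08).

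Among the small subunit genes, Rps20 ranged from 0.28 to 0.39 over the pravastatin arrays with a median of 0.36 and was fitted at 0.34 ± 0.03, 1.27-fold (adjusted p = 6.7e-09). Its 8 arrays lay close together. Rps18, a protein of the head of the subunit, ranged from 0.22 to 0.43 with a median of 0.30 and was fitted at 0.31 ± 0.03 (adjusted p = 8.0e-08). Rps19, the gene most often mutated in Diamond-Blackfan anaemia in humans, ranged from 0.16 to 0.42 with a median of 0.28 and was fitted at 0.29 ± 0.03 (adjusted p = 8.0e-08). None of these 3 genes had a pravastatin array at or below 0. Rps13 was fitted at 0.26 ± 0.03 (adjusted p = 1.7e-07) with arrays between 0.17 and 0.33, and Rps27, a zinc-finger protein, at 0.26 ± 0.05 (adjusted p = 0.00025) with arrays between -0.12 and 0.42. Of the genes in this paragraph Rps27 alone had an array below 0.

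By their brightest probes, the members with the smallest changes that still passed were close to 0. In the large subunit, Rpl24, one of the last proteins to join, was fitted at 0.05 ± 0.02 (adjusted p = 0.048), with arrays from -0.02 to 0.10. That call held in 11 of 34 alternatives and was lost with each random block, with array weights and without any 1 of several arrays. Rpl5 and Rpl11, which together with 5S rRNA form the particle that binds and inhibits Mdm2, were each fitted at 0.09 ± 0.03, with adjusted p-values of 0.0050 and 0.0045. Rpl9 was fitted at 0.10 ± 0.02 (adjusted p = 0.0017), with all 8 arrays between 0.06 and 0.20. In the small subunit, low called members were Rps29 at 0.06 ± 0.02 (adjusted p = 0.049), Rps7 at 0.07 ± 0.03 (adjusted p = 0.021), Rps15 at 0.12 ± 0.03 (adjusted p = 0.0012) and Rps16 at 0.13 ± 0.03 (adjusted p = 0.00032). The Rps29 call held in 8 of 34 alternatives. Rps29 and Rps7 each had arrays below 0, whereas Rps15 and Rps16 did not. Dimmer probes of several of these genes were further from 0. Rpl24 had one at 0.22 ± 0.03, Rpl9 at 0.17 ± 0.03 and Rps15 at 0.21 ± 0.03, all called. Rpl11 had called probes at 0.13 and 0.15, and Rps16 at 0.08 and 0.25. The other Rps29 probes were at 0.10, which was called, and 0.02, which was not.

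Rpl10, which is set into the large subunit late and sits near the peptidyl transferase centre, was the 1 member lower under pravastatin on its brightest probe. Its arrays ran from -0.39 to 0.11 with a median of -0.17, and the fitted value was -0.16 ± 0.05 (adjusted p = 0.012). The arrays were split, with 6 below 0 and replicates 7 and 8 above it. Within the slide that holds replicates 1, 2, 5 and 6 the value was -0.27, and within the slide of replicates 3, 4, 7 and 8 it was -0.06. The call was lost with slide or scan day as a random block and without the dye term, and with arrays centred on their median and no loess the value was 0.08. After SQ1, Rpl10 was at -0.08 ± 0.05 and did not pass (adjusted p = 0.28).

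Of the 8 members whose brightest probe did not pass under pravastatin, 7 are named here after their values were seen. In the large subunit these were Rpl23 at 0.08 ± 0.04, Rpl41 at 0.08 ± 0.04, Rpl26 at 0.03 ± 0.03 and Rpl3 at -0.06 ± 0.04. In the small subunit they included Rps21 at 0.13 ± 0.06, Rps2 at 0.07 ± 0.03 and Rps6 at 0.03 ± 0.04. Rps6, the substrate of the S6 kinases downstream of mTOR, ranged from -0.17 to 0.21 over the 7 pravastatin arrays that gave a ratio for it, and its probe was the 1 member probe saturated on an array. Of the 7 values, Rpl3 alone was below 0, and Rps21 had the widest standard error. Several of these genes had another probe that was higher. Rpl26 had 2, at 0.32 ± 0.03 (adjusted p = 2.8e-08) and 0.23 ± 0.02 (adjusted p = 1.7e-07), and Rpl23 had 2, at 0.22 ± 0.04 and 0.19 ± 0.02. Rps6 had a probe not saturated on any array at 0.21 ± 0.03 (adjusted p = 7.7e-06), and Rps2 had one at 0.13 ± 0.04 (adjusted p = 0.010).

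The other members with well-known separate roles rose with the rest under pravastatin. The stalk genes Rplp0 and Rplp1 were at 0.15 ± 0.03 and 0.26 ± 0.03, with adjusted p-values of 0.00039 and 1.4e-06. Rpl13a, part of the interferon-induced complex that represses translation of inflammatory mRNAs, was at 0.19 ± 0.03 (adjusted p = 5.0e-05), with all arrays between 0.08 and 0.29. Rps27a, made as a fusion with ubiquitin, was at 0.19 ± 0.04 (adjusted p = 0.00028). Rpsa, known also as the laminin receptor, was at 0.22 ± 0.03 (adjusted p = 3.0e-05). Rps27a and Rpsa were above 0 on every pravastatin array.

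After SQ1 at 100 µM, most ribosomal protein transcripts did not pass the test. By their brightest probes, 5 of 46 large subunit genes and 4 of 30 small subunit genes were higher, none was lower, and 67 did not pass. Over all genes tested, 32.2% were called under SQ1, 15.7% higher and 16.5% lower, so the members' share was below the background. The median log2 ratio was 0.04 for the large subunit and 0.01 for the small subunit, against -0.002 over all genes tested. Array medians ran from -0.004 to 0.10 for the large subunit (SD 0.042, above 0 on 6 of 8 arrays) and from -0.03 to 0.10 for the small subunit (SD 0.047, above 0 on 5 of 8 arrays). On its brightest probe, none of the members was called and more than 1.2-fold higher, against 3.95% of all genes tested. A dimmer probe of Rps24 was past that fold, at 0.28 ± 0.03 (limma, adjusted p = 1.1e-06), while its brightest was at 0.02.

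The 9 genes called higher under SQ1 changed little. Rps28, in the head of the small subunit, ranged from -0.04 to 0.29 over the SQ1 arrays with a median of 0.12 and was fitted at 0.13 ± 0.03 (adjusted p = 0.0058). Rps19 was above 0 on all 8 arrays, between 0.03 and 0.18 with a median of 0.10, and was fitted at 0.10 ± 0.03 (adjusted p = 0.011). Rps3, which lines the mRNA entry channel, was at 0.08 ± 0.03 (adjusted p = 0.046). In the large subunit, Rpl35, beside the tunnel exit, ranged from -0.02 to 0.25 with a median of 0.16 and was fitted at 0.13 ± 0.04 (adjusted p = 0.022). Rpl27a was at 0.10 ± 0.02 (adjusted p = 0.0063), Rpl18 at 0.09 ± 0.03 (adjusted p = 0.017), Rpl36a at 0.08 ± 0.03 (adjusted p = 0.044) and Rpl28 at 0.08 ± 0.03 (adjusted p = 0.049). Of these 4, Rpl36a alone was above 0 on every SQ1 array. Across the members, 5 were above 0 on all 8 SQ1 arrays (background 11.5%) and 1, Rpl22, was below 0 on all 8 (background 11.8%), at -0.07 ± 0.03, which did not pass (adjusted p = 0.055).

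These SQ1 calls depended on the arrays and on the treatment of slides. With slide or scan day as a random block no member was called under SQ1, of either subunit, against 16.85% and 14.9% of all genes. The large subunit count of 5 became 1 without SQ1 replicate 1, 2 without SQ1 replicate 5 or 7, and 3 without SQ1 replicate 3 or 4 or without pravastatin replicate 3. Without any 1 of these arrays, 27.8% to 31.3% of all genes were called under SQ1. The small subunit median became -0.000543 without SQ1 replicate 7.

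**Figure D2:**
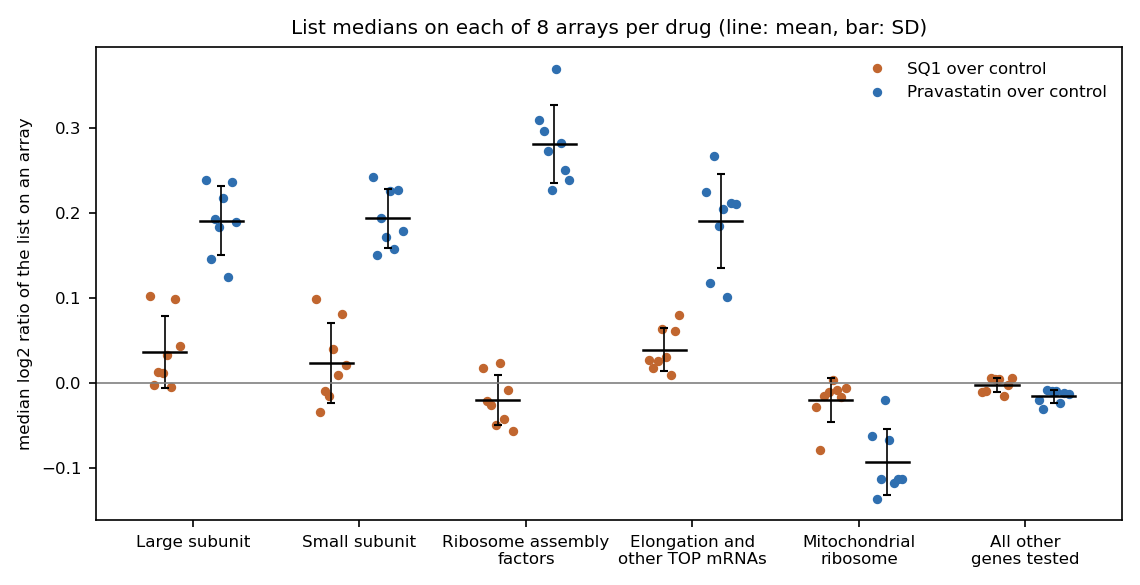
Each point is the median log2 ratio (treated over control) of a gene list on 1 array, with SQ1 in orange and pravastatin in blue, the mean as a line and the SD over 8 arrays as a bar. Large and small subunit medians lie between 0.13 and 0.24 on every pravastatin array and between -0.03 and 0.10 on the SQ1 arrays.

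The controls of both drugs carried the same replicate numbers, but whether same-numbered arrays shared control RNA was not established. Values of both drugs are given side by side, and the difference was tested as a contrast within the fit. At these doses, which differ, SQ1 minus pravastatin on the brightest probe was negative and past the threshold for 30 of 46 large subunit genes. The same held for 21 of 30 small subunit genes, and no member was positive and past it on that probe. Over all genes tested, 53.0% were called in this contrast, 23.8% lower and 29.2% higher. The median difference was -0.15 for each subunit, against 0.01 over all genes tested, and 4 large and 4 small subunit genes were more than 1.2-fold lower, against 12.1% of all genes tested. With slide as a random block the counts were 17 and 15, while 38.0% of all genes were called, 57.7% of them higher. No slide held both drugs, so a difference between the drugs cannot be told apart from one between slides.

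Rps20 showed the widest gap. It was at -0.01 ± 0.03 after SQ1 and 0.34 ± 0.03 after pravastatin, a difference of -0.36 ± 0.04 (adjusted p = 7.1e-07), and its SQ1 arrays, from -0.09 to 0.09, did not overlap its pravastatin arrays, from 0.28 to 0.39. Rpl22, a large subunit protein that mice can live without, was at -0.07 after SQ1 and 0.23 after pravastatin, a difference of -0.30 ± 0.04 (adjusted p = 9.2e-06). Its SQ1 arrays, from -0.14 to -0.01, and its pravastatin arrays, from 0.10 to 0.35, also did not overlap. On the dimmer Rpl22 probe the difference was 0.28 ± 0.08 (adjusted p = 0.012), and with the mean over its probes it was -0.01 and the call was lost. The differences of Rpl12 at -0.29 ± 0.05 (adjusted p = 0.00011), Rpl15 at -0.29 ± 0.05 (adjusted p = 0.00030), Rpl30 at -0.28 ± 0.03 (adjusted p = 6.0e-06) and Rplp2 at -0.24 ± 0.06 (adjusted p = 0.0016) followed in the large subunit. For Rpl15 the dimmer probe gave 0.21 ± 0.04 (adjusted p = 0.00023), and the mean over both was -0.04 and did not pass. In the small subunit the differences were those of Rps13 at -0.29 ± 0.04 (adjusted p = 6.4e-06), Rps27 at -0.27 ± 0.07 (adjusted p = 0.0051), Rps27a at -0.26 ± 0.05 (adjusted p = 0.00049) and Rps18 at -0.25 ± 0.04 (adjusted p = 7.8e-05). For most of these genes the SQ1 value was near 0.

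The smallest differences that passed were those of Rpl27a at -0.10 ± 0.03, Rpl11 at -0.11 ± 0.04, Rpl36a at -0.11 ± 0.04, Rpl8 at -0.13 ± 0.04 and Rpl38 at -0.14 ± 0.04 in the large subunit. In the small subunit they included Rps7 at -0.09 ± 0.04, Rps9 at -0.12 ± 0.05, Rps14 at -0.13 ± 0.04 and Rps16 at -0.14 ± 0.04. Rpl8 lies near the peptidyl transferase centre, Rps9 at the mRNA entry, and loss of 1 copy of Rps14 is known from the 5q- syndrome in humans. No difference was past the threshold for Rpl10 (0.09 ± 0.08), Rpl5 (-0.03 ± 0.04), Rps6 (-0.06 ± 0.05), Rpl35 (-0.08 ± 0.06) or Rps28 (-0.10 ± 0.05).

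Each drug's arrays lay on 2 slides of its own, so every member could also be read within a slide. No slide held both drugs, and pravastatin replicates 1, 2, 5 and 6 were scanned on another day than all other arrays. Pravastatin medians were 0.20 on both slides for the large subunit, and 0.19 on the slide of replicates 1, 2, 5 and 6 and 0.20 on the other for the small subunit. Within the first of these slides 36 large and 23 small subunit genes were higher, with 64.2% of all genes called in either direction, and within the second 42 and 24, with 57.4% of all genes called. For SQ1, 1 small subunit gene was higher and 1 large subunit gene lower on the slide of replicates 1, 2, 5 and 6 (34.7% of all genes called), and 4 large and 4 small subunit genes were higher on the other (26.9% called). The slides differed past the threshold for 1 member under pravastatin (21.7% of all genes) and for none under SQ1 (12.1% of all genes). Rps27 was at 0.18 on the slide of replicates 1, 2, 5 and 6 and 0.35 on the slide of replicates 3, 4, 7 and 8, which did not pass (adjusted p of the difference = 0.23).

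**Figure D3:**
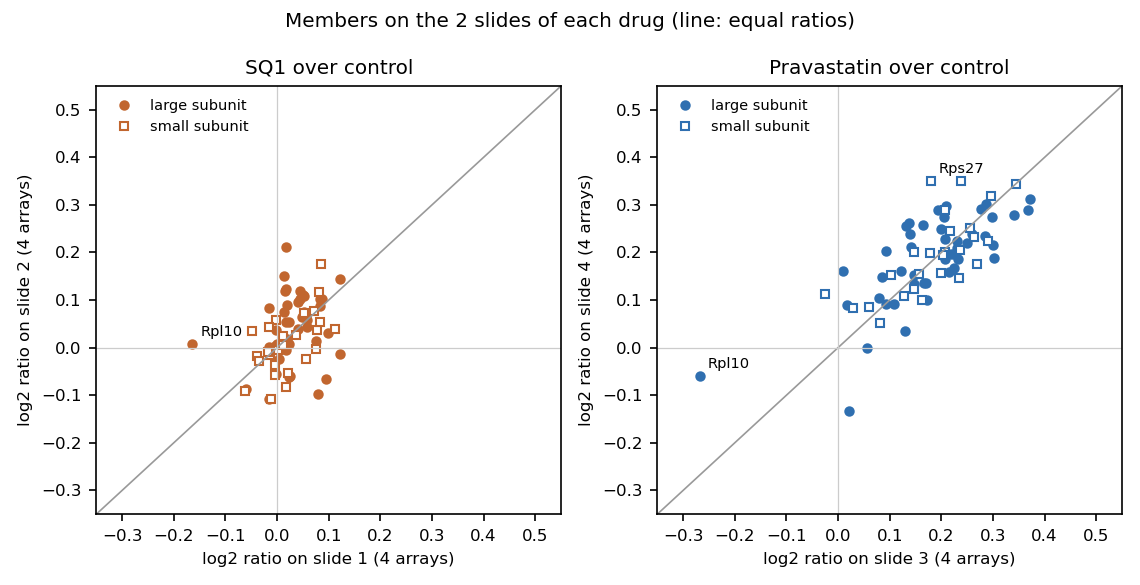
Each point is 1 of 72 members, with its log2 ratio (treated over control) on the slide of replicates 1, 2, 5 and 6 on the horizontal axis and on the slide of replicates 3, 4, 7 and 8 on the vertical axis, for SQ1 on the left and pravastatin on the right. Most pravastatin points lie in the upper right quadrant near the line of equal ratios, with Rps27 (0.18 and 0.35) above it and Rpl10 (-0.27 and -0.06) below 0 on both slides.

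Where a gene had several probes, the values above are those of its brightest unless another is named, and 50 members had more than 1 probe that was tested. In the limma fit of single probes, some calls near the threshold were lost. The brightest probes of Rpl24 and Rps29 under pravastatin had adjusted p-values of 0.0504 and 0.051. Those of Rpl28 and Rps3 under SQ1 had 0.0526 and 0.0501, and that of Rps9 in SQ1 minus pravastatin had 0.0531. Under pravastatin all probes of a gene had the same sign for 45 of the 50, and under SQ1 for 23 of the 50. In 3 genes, probes passed the threshold in opposite directions under pravastatin. The bright probe of Rpl15 was at 0.34 and a dimmer one at -0.41 ± 0.03 (adjusted p = 1.0e-09). Rpl22 gave 0.23 on the bright probe and -0.57 ± 0.06 on the dimmer one (adjusted p = 3.6e-07). Rpl6 gave 0.18 on the brightest probe and -0.26 ± 0.03 on the dimmest of its 4 (adjusted p = 2.9e-07). Under SQ1 the probes of Rpl23 and of Rpl27a passed in opposite directions. Rpl23 had probes at 0.11 ± 0.04 and -0.16 ± 0.02, and Rpl27a at 0.10 ± 0.02 and -0.07 ± 0.03. In each of the 5 genes the lower value belonged to the dimmest probe, whose log2 intensity was at most 14.16. With the mean over all probes, Rpl15 was at -0.04 and Rpl22 at -0.17 under pravastatin. Dimmer probes of Rpl15 (-0.21 ± 0.03), Rpl21 (-0.11 ± 0.03), Rpl22 (-0.29 ± 0.06) and Rps15a (-0.13 ± 0.05) were also called lower under SQ1. Dimmer probes of other members, such as Rpl23a, Rpl26, Rpl31, Rplp0, Rps15, Rps24 and Rpsa, were called higher under SQ1, at 0.08 to 0.28.

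The size of the pravastatin shift depended on how intensity was treated. The 88 other genes tested whose intensity fell in the members' interquartile range had medians of -0.24 under pravastatin and -0.07 under SQ1. Set against these, the large and small subunit medians stood 0.44 and 0.43 higher under pravastatin, and 0.11 and 0.08 higher under SQ1. When arrays were centred on their median with no intensity-dependent correction, the pravastatin medians of the members were 0.42 and 0.41 with 44 large and 30 small subunit genes higher, and none lower, while the 88 equally bright genes had a median of -0.01. The same setting gave SQ1 medians of 0.18 and 0.15 with no member called, at standard errors of 0.090 and 0.092 against 0.031 for each subunit with loess. The median of all genes tested was then 0.04 under pravastatin and 0.07 under SQ1, and 47.6% and 13.7% of them were called. Under that centring 61.0% of all genes called under pravastatin were higher and 71.1% of those called under SQ1, against 46.3% and 48.7% with loess, and with Agilent's own processed ratio the pravastatin share was 56.8%. In SQ1 minus pravastatin the share of higher calls was 44.7% with Agilent's ratio, against 55.1% as reported.

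**Figure D4:**
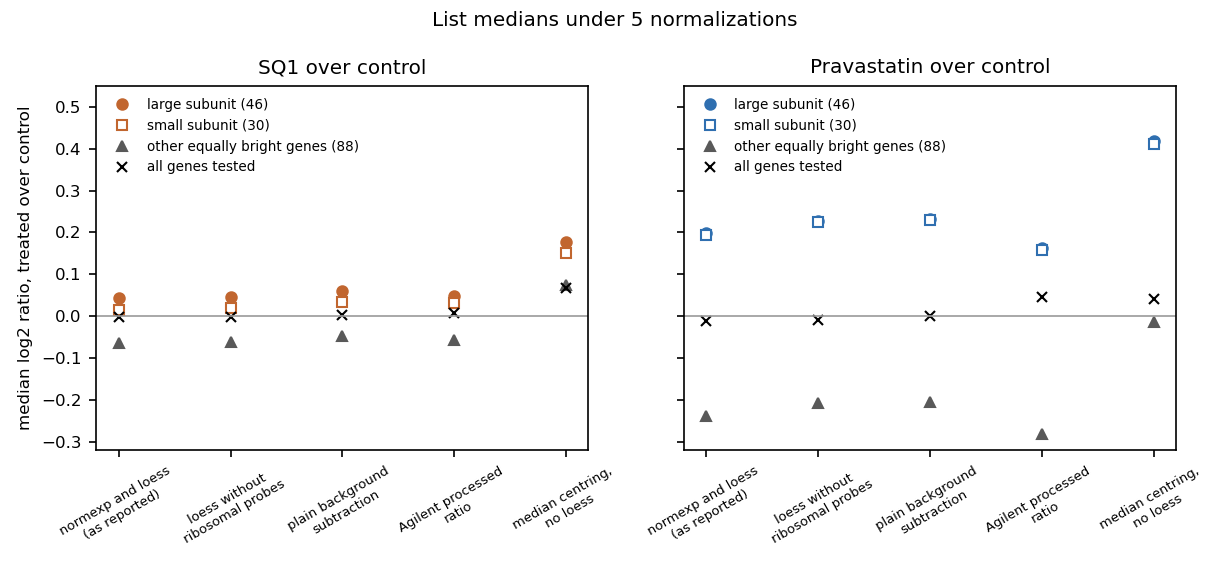
Median log2 ratios (treated over control) of the large and small subunit genes, of the 88 other equally bright genes and of all genes tested are plotted under 5 normalizations, with SQ1 on the left and pravastatin on the right. Both subunits lie above the equally bright genes under each of the 5, by 0.44 and 0.43 under pravastatin as reported.

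Over the promoters of 300 bases (250 before the start to 50 after it), a run of at least 8 C or T bases near the start was found in 30 of 56 members (53.6%), against 23.7% of the 27025 genes in the table and 23.7% of the 11982 tested genes it holds. It was read on the gene's own strand. CTTTCC on that strand was found in 41.1% of the members, 18 large and 5 small subunit genes, against 4328 of the 27025 genes in the table and 16.9% of tested genes, and can lie within such a run. CCGGAAG on either strand, the core of ETS-family sites, was found in 41.1% of the members, against 9.93% and 17.3%. AAGATGGC on either strand, the core of the YY1 site, was found in 8.93% against 3.19% and 4.59%, and GGGCGG on either strand, the GC box, in 60.7% against 38.2% and 62.1%. TATAAA on the gene's strand was found in 8.93% of the members against 9.77% and 7.04%. TCACCCCAC was in none of the 56, against 0.614% and 0.693%.
The pravastatin median was 0.20 for the members with the C and T run and 0.15 for those without, and 0.18 for those with CTTTCC and 0.19 for those without, all within the range of single members. Under SQ1 the medians were 0.04 with the run and 0.01 without. These letters are a description of the windows only.

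Genes that act beside the ribosomal proteins were read from lists chosen with earlier results of these data known, and their counts stand against all genes tested, of which 30.8% were higher and 35.8% lower under pravastatin and 15.7% higher and 16.5% lower under SQ1. Shares near these are no result about a list. Ribosomal proteins with symbols outside the rule gave 3 of 4 higher under pravastatin. Rack1, a scaffold on the small subunit, was at 0.28 ± 0.03, Rps3a1 at 0.24 ± 0.03, and Fau, made as a fusion with a ubiquitin-like protein, at 0.21 ± 0.02. None of the 4 passed under SQ1. Of the 7 paralogues tested, none was higher under either drug and 3 were lower under each, with so few genes close to the background under pravastatin. Under pravastatin these were Rpl36al at -0.28 ± 0.04, Rpl7l1 at -0.14 ± 0.03 and Rps27l at -0.11 ± 0.03, and under SQ1 Rpl36al at -0.24 ± 0.04, Rpl39l at -0.17 ± 0.05 and Rps4l at -0.09 ± 0.03. Rpl36al thus fell where the brightest probe of Rpl36a rose under both drugs. The SQ1 call of Rpl36a held in 16 of 34 alternatives, and its other probes, at 0.09 and -0.04 under SQ1, did not pass. Rpl22l1 was at -0.14 ± 0.06 under pravastatin (adjusted p = 0.056).

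The factors that assemble ribosomes rose under pravastatin in 38 of 40 cases, with 1 lower and a median of 0.28, and under SQ1 1 was higher, 8 were lower and the median was -0.03. Mdn1, the large AAA-type ATPase that acts on pre-60S particles, was at 0.56 ± 0.06 (adjusted p = 9.1e-07) and Heatr1, of the small subunit processome, at 0.46 ± 0.03 (adjusted p = 1.3e-09) under pravastatin, while Pes1 was at -0.10 ± 0.04 (adjusted p = 0.022). Under SQ1, Sbds was at -0.15 (adjusted p = 0.012) and Nip7 at -0.14 (adjusted p = 0.0029). Array medians of this list lay between 0.23 and 0.37 on the 8 pravastatin arrays and between -0.06 and 0.02 on the SQ1 arrays. In the RNA polymerase I machinery, which makes the ribosomal RNA precursor, 9 of 13 genes were higher and 2 lower under pravastatin, with Taf1d at 0.52 ± 0.03 and Ubtf, the upstream binding factor, at -0.37 ± 0.03. Under SQ1 1 was higher and 3 were lower, and Ubtf was at -0.14 ± 0.03 (adjusted p = 0.0018).

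Elongation factors and other TOP mRNAs had 12 of 18 genes higher and none lower under pravastatin, with a median of 0.19, and 7 higher and 1 lower under SQ1, with a median of 0.05. Hnrnpa1 at 0.53 ± 0.06 and Npm1, a nucleolar chaperone, at 0.44 ± 0.03 were the highest under pravastatin, and Eif4b at 0.21 ± 0.03 and Tpt1 at 0.18 ± 0.04 under SQ1. Initiation factors were mixed, with 13 of 30 higher and 4 lower under pravastatin and 2 higher and 3 lower under SQ1. Eif4ebp1, which blocks the cap-binding protein when mTOR is inactive, was at 0.58 ± 0.05 under pravastatin (adjusted p = 8.6e-09) and its relative Eif4ebp2 at -0.50 ± 0.13 (adjusted p = 0.0035). Ribosomal proteins of the mitochondrion had 11 of 77 higher and 40 lower under pravastatin, with a median of -0.09. Under SQ1 3 were higher and 14 lower, near the 16.5% of all genes, with a median of -0.02. The pravastatin values of this list depended on the normalization. With median centring and no loess 11 were higher and 4 lower (median 0.07), with 47.6% of all genes called. With Agilent's ratio 21 were higher and 29 lower (median -0.008), with 71.1% of all genes called. Mrpl19 was at 0.45 ± 0.05 and Mrpl50 at -0.61 ± 0.04 under pravastatin.

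**Figure D5:**
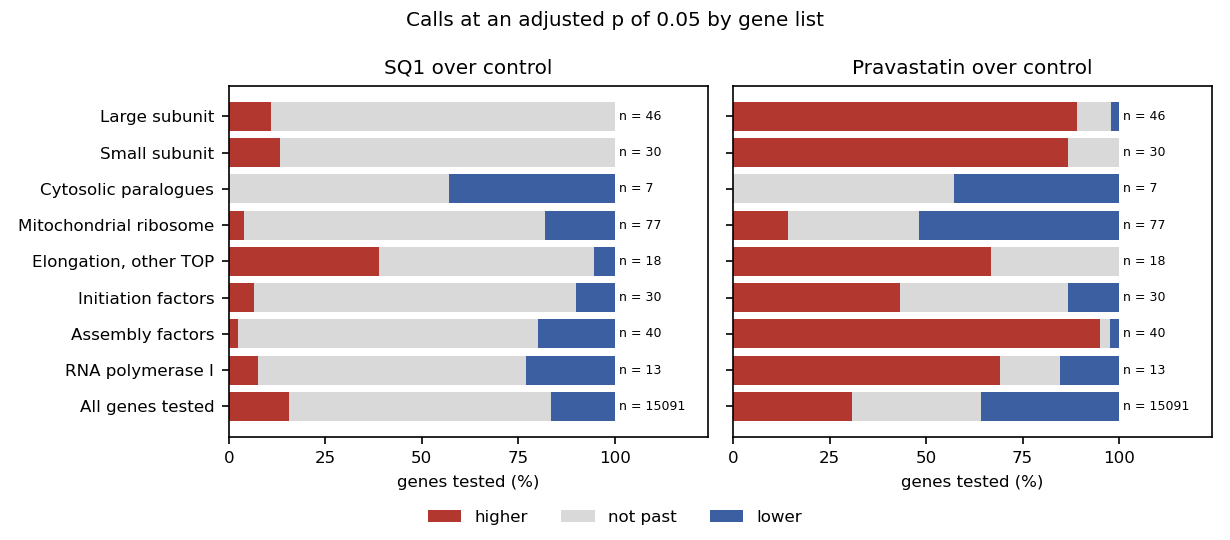
Stacked bars give, for SQ1 on the left and pravastatin on the right, the percentage of each list's tested genes that were higher, not past or lower at an adjusted p of 0.05, with the number of genes at the right. Under pravastatin the higher part holds 41 of 46 large subunit genes, 26 of 30 small subunit genes and 38 of 40 assembly factors, against 30.8% of all genes tested.

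Markers of cell types were read on the same arrays, where 66.6% of all genes were called under pravastatin (35.8% lower) and 32.2% under SQ1 (16.5% lower). All 12 hepatocyte markers were measured above background, and all 12 were lower under pravastatin, with a median of -1.38 and array medians between -1.64 and -1.15. Alb was at -1.05 ± 0.08, Ttr at -1.66 ± 0.09, and the lowest were the amino acid catabolism enzyme Tdo2 at -3.15 and the urea cycle enzyme Cps1 at -2.73. Under SQ1, 5 of the 12 were lower and none was higher, with a median of -0.20 and array medians between -0.58 and 0.08. Of the markers of Kupffer cells and leukocytes 8 of 11 were lower under pravastatin, of stellate cells 3 of 10, of cholangiocytes 4 of 7 with 1 higher, and of endothelium 4 of 9 with 4 higher, so that the stellate share was below that of all genes and the endothelial markers had a median of -0.03. Under SQ1, 5 of the 9 endothelial markers were higher and none lower (median 0.15), against 15.7% of all genes higher. Of the Kupffer cell and leukocyte markers 5 of 11 were then lower and 1 higher, of the cholangiocyte markers 3 of 7 were lower and none higher, and of the stellate markers 2 of 10 were higher and none lower. Proliferation markers were lower in 5 of 10 under pravastatin (median -0.26) and in 10 of 10 under SQ1 (median -0.55). The part of these shifts in the ribosomal protein values was not tested.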

How the data were processed

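RNA of drug-treated and untreated mouse hepatocytes (500 ng total RNA per sample, amplified and labelled) was hybridised on 16 arrays of 2 colours. Per the file headers, the arrays were scanned and read with Agilent Feature Extraction 11.0.1.1, and the deposited scanner files hold the median intensity of spot and background in each channel, the software's processed log10 ratio of red over green and its flags. The deposited series table holds log2 ratios that correlate at 0.742 to 0.999 per array with the processed ratio turned to treated over control, so its direction is known. A step between scanner files and that table is not given in the sources used here.

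Here, median intensities were background-corrected with normexp (offset 50) and loess-normalized within arrays with limma 3.58.1 in R 4.3.3. Control spots had weight 0, outlier-flagged spots were left out and spots of a probe were averaged. A gene had to be well above background in at least 4 treated arrays of a drug or 8 control channels and needed 7 or more usable ratios per drug. It was represented by its brightest probe. Genes were named through RefSeq accessions, which named 27234 of 39429 probes. Both drugs were fitted together on the 16 arrays with a dye constant (13 residual degrees of freedom, or 11 in the fit with slides), with Benjamini-Hochberg adjustment across the 15091 genes. For the values of a gene's other probes, 25870 probes were also fitted singly, with an adjustment of their own. On simulated data the fit was tested with 200 genes changed by known folds. Same-numbered arrays of both drugs deviated together (correlations between 0.22 and 0.72, each above 0.1), but the best match carried the same number for 3 of 8 only. Pairing by number is thus not established, and the reported fit does not use it. Precision is limited by how many arrays there are.

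The members and lists were chosen with earlier results of these data known. A few genes are not reported singly here. Named are otherwise the 5 highest and 5 lowest called members of each subunit per comparison, all called where fewer, members with well-known roles, saturated ones and those whose probes disagree, and up to 2 highest and lowest called genes of other lists. Alternatives covered background correction, normalization, filter, probe choice, dye term, blocks, array weights, slides and leaving out each array.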

Additional observations from a re-analysis of the deposited data

Results flagged for a closer look

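In 87 sets of 8 arrays, 4 had 1 array standing apart from the rest by more than Dixon's critical share of the range, which chance gives in about 1 of 20 sets. Rpl27a stood at 0.109 on pravastatin replicate 7, where the nearest array was at 0.185 and the median of the 8 arrays was 0.207. Rpl30 stood at 0.357 on the same array, where the nearest was at 0.296 and the median was 0.279. Rpl9 stood at 0.195 on pravastatin replicate 1, where the nearest was at 0.124 and the median was 0.0889. Rps6 stood at 0.114 on SQ1 replicate 7, where the nearest was at -0.0131 and the median was -0.0417.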

How the results depend on the processing

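Under pravastatin, the counts of members called stayed within 1.5 times the reported ones under every alternative but 1, the fit without a dye constant, which gave 27 large subunit genes (and 18 small). That fit called 63.2% of all genes under pravastatin. Leaving out each array gave 41 to 43 large and 25 to 27 small subunit genes, with medians of 0.19 to 0.21 for both. Median centring without loess gave medians of 0.419 and 0.412, and Agilent's processed ratio and the deposited series table each gave 0.158 for the small subunit. Under SQ1 the counts were less stable. The large subunit count was 0 with median centring and with either slide or scan day as a random block, 1 at an adjusted p of 0.01, without the dye constant and within the slide of replicates 1, 2, 5 and 6, 3 without the filter on dim probes, 9 with plain background subtraction and 10 with Agilent's ratio, the series table and array weights. The small subunit count was 0 with median centring and with both random blocks, 1 without the dye constant and within that slide, 2 at an adjusted p of 0.01 and 7 with the mean over all probes. Of all genes, 13.7% were called under SQ1 with median centring, 27.7% without the dye constant and 22.7% without the filter on dim probes. With plain background subtraction this share was 31.25%, with Agilent's ratio 35.8%, with array weights 38.0% and with the mean over all probes 32.6%. Leaving out each array gave 1 to 7 large and 3 to 5 small subunit genes, and medians of 0.033 to 0.049 for the large subunit and -0.000543 to 0.025 for the small one, the lowest of them without SQ1 replicate 7. Median centring gave SQ1 medians of 0.177 and 0.152. SQ1 minus pravastatin called 28 to 31 large and 19 to 22 small subunit genes with each array left out (49.65% to 54.86% of all genes). It called 17 large ones with slide as a random block (38.0% of all genes), 13 and 9 without the dye constant (48.7%), and 5 and 2 with median centring (24.5%). Without the dye constant and with median centring, the members' shares were below those of all genes. With the replicate number as a random block, 41 large and 25 small subunit genes were called under pravastatin and 4 and 4 under SQ1, against 65.5% and 31.4% of all genes. In SQ1 minus pravastatin the counts were then 35 and 25 (63.8% of all genes), and 34 and 24 with the number as a fixed block (62.4%). A block by replicate number thus moved no count by over 1.5 times. Among single members called as reported or under the alternative, the sign turned for Rpl10 under pravastatin with median centring (0.083), for Rpl15 (-0.036 under pravastatin, -0.076 under SQ1) and Rpl22 (-0.17 under pravastatin) with the mean over all probes, and for Rpl24 (-0.016) and Rps29 (-0.0043) under pravastatin with Agilent's ratio and with the series table. Values called under neither also changed sign under some alternatives. The cause was not tested, except that median centring widened the standard errors. Saturation touched 1 member probe, and probe binding to pseudogene transcripts was not tested.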
